A study of Rattus norvegicus with 20 samples.

Results

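Serotonin receptors were measured in the nucleus accumbens shell, a ventral striatal region that takes part in reward, of 20 alcohol-preferring (P) rats. The members are the 10 genes Htr1b, Htr1d, Htr1f, Htr2a, Htr2c, Htr3a, Htr4, Htr5a, Htr6 and Htr7, which were reached through the 17 of 31099 probe sets (groups of probes read out as 1 value) whose platform annotation names 1 of these genes and no other. Animals 1 to 10 had access to 15 and 30% ethanol during adolescence (n = 10), and animals 12 to 21 had water only (n = 10). All 20 animals belong to the P line, which was bred for high voluntary ethanol intake, so no animal of an unselected line enters the comparison. The sources used here do not give sex, age at tissue collection, the interval since drinking or the amount each animal drank. Each animal gave 1 array, so the spread within a group is the spread between animals plus that of the measurement. The question was which transcripts differ between rats that had ethanol access in adolescence and rats that had not.

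Serotonin reaches the nucleus accumbens through fibres from the raphe nuclei of the brainstem and acts there through a large receptor family. All the members are receptors coupled to G proteins except Htr3a, which is a subunit of a cation channel opened by serotonin. Htr1b, Htr1d, Htr1f and Htr5a couple to inhibitory G proteins (Gi/o), which lower cyclic AMP; Htr2a and Htr2c couple to Gq, which releases calcium through phospholipase C; and Htr4, Htr6 and Htr7 couple to Gs, which raises cyclic AMP.

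No serotonin receptor differed between ethanol and water animals past an adjusted p of 0.05. Of the 17 probe sets, 9, for 8 genes, had a mean over all arrays above 6.65 on the log2 scale, the level under which 33.3% of all probe sets lay and were left out as dim. Htr5a and Htr6 had dim probe sets only, as did 3 of the 4 probe sets of Htr2a, 1 of 2 for Htr4 and 2 of 3 for Htr7. A dim probe set gives little information on how much of the transcript is present. Of the 9 brighter probe sets 0 passed (limma with Benjamini-Hochberg adjustment over 20695 probe sets), against 20 of all 20695, or 0.0966%. At an unadjusted p below 0.05 there were 2 of the 9, Htr2a and the dimmer of the brighter pair for Htr2c, while 12.1% of all probe sets met that threshold. In bulk tissue, fewer cells of a type and less RNA per cell cannot be told apart.

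The differences of the brighter members, ethanol minus water, lay mostly on the positive side. They were positive for 8 of the 9 probe sets, with a median of 0.10 on the log2 scale, whereas 50.0% of all probe sets above the dim level were positive. The 8 dim probe sets were split, with 4 differences above 0 and 4 below. Over all 17, 12 were positive (70.6%) with a median of 0.08, against 53.2% of all 31042 probe sets. Without water animals 17, 19 and 20, described next, 6 of the 9 were positive with a median of 0.06, and 52.1% of all probe sets were positive. Of the 9, 0 then passed and 0 had an unadjusted p below 0.05, against 0.242% and 11.2% of all probe sets.

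Water animals 17, 19 and 20 stood apart from the other 17 animals in markers of cell type, and several receptors moved with them. Medium spiny neurons are the main neuron type of the striatum, and 20 of their 22 listed markers were measured, all above the dim level, among them Drd1, Drd2, Penk and Ppp1r1b. The mean of the 20 markers was 11.82, 12.06 and 11.53 in water animals 17, 19 and 20 and at least 12.28 in every other animal. It ranged from 12.28 to 12.96 in ethanol and from 11.53 to 12.97 in water. All 20 markers had a positive difference and 0 passed, against 0.0966% of all probe sets. Markers of the neighbouring septum, pallidum and basal forebrain ran the other way. The mean of their 8 brighter members was 8.76, 8.63 and 9.06 in the same 3 animals and at most 8.34 in the others, with a range of 7.97 to 8.34 in ethanol and 7.92 to 9.06 in water, and Zic1 was dim. Oligodendrocyte and myelin genes, of which 15 of 16 were measured, had means of 11.52, 11.37 and 11.41 in these animals and ranged from 10.65 to 11.51 in ethanol and from 10.59 to 11.52 in water. All 15 had a negative difference and 0 passed, against 0.0966% of all probe sets. Oligodendrocyte precursor genes, of which 5 of 6 were measured, had means of 9.76, 9.58 and 9.72 in these animals and at most 9.57 in the others, with a range of 9.25 to 9.57 in ethanol and 9.26 to 9.76 in water, and all 5 had a negative difference. The GABAergic interneuron mean was 10.40, 10.70 and 10.70 in these animals and at most 10.60 in the others. The microglia mean was 9.34, 9.41 and 9.57, against at most 9.36. The highest cholinergic mean was in animal 17 (8.63), cortical in 19 (8.98) and astrocyte in 20 (12.04). The other 17 animals were at most at 8.56, 8.91 and 11.88. Ependyma, endothelial, pericyte and choroid plexus means of these 3 animals lay within the range of the others. The choroid plexus mean rests on Aqp1, Kcnj13 and Igfbp2. Aqp1 and Kcnj13 were within that range, but Igfbp2 was 8.61, 8.17 and 8.52 in animals 17, 19 and 20, against at most 8.13. The dim choroid plexus marker Prlr was also highest in them, at 7.30, 6.91 and 7.93, against at most 6.56. The array-to-array correlation was low in water animals 12, 17 and 20, whose median correlation with the other arrays was 0.988 to 0.991. The part of tissue makeup in the receptor differences was not tested beyond the values given below, with these animals left out or with the marker mean as a covariate.

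**Figure D1:**
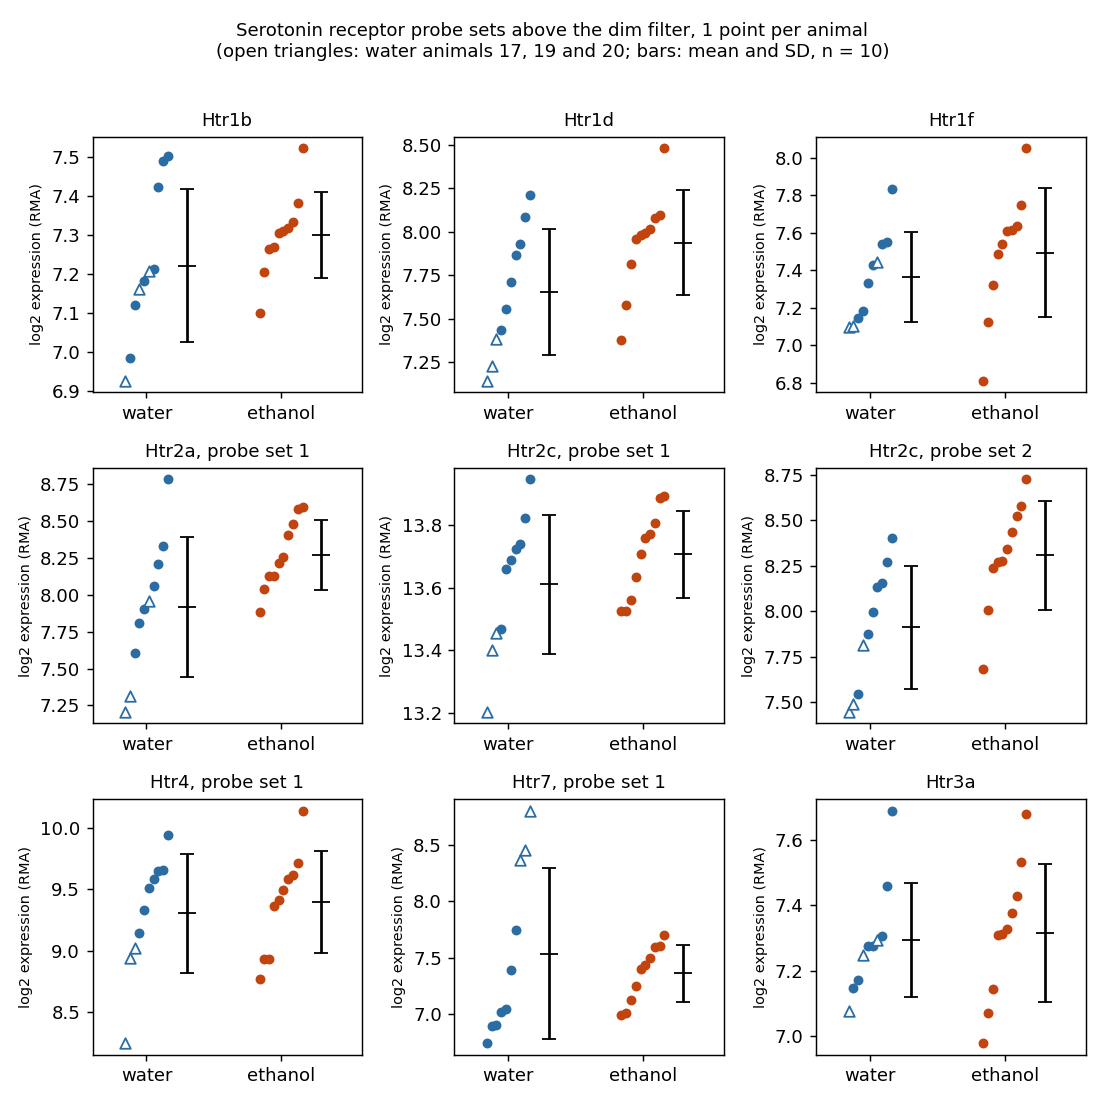
Log2 expression of the 9 serotonin receptor probe sets above the dim level, with 1 point per animal, arranged from lowest to highest within water (blue) and ethanol (orange); bars show the mean and SD (n = 10 per group). Open triangles are water animals 17, 19 and 20. They are the 3 highest of all animals for Htr7 and lie at the low end of the water group for Htr2c, Htr4 and Htr1d, and the groups overlap in every panel. Each axis has its own range.

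Among the Gi/o-coupled receptors, Htr1d had the largest difference. Htr1d is an inhibitory receptor found on nerve terminals. Its log2 level was lowest at 7.38, with a median of 7.99 and a highest value of 8.48 in ethanol, and lowest at 7.15, with a median of 7.63 and a highest value of 8.21 in water. The groups overlapped over most of their range, but 8 of 10 ethanol animals were above the water median and the lowest animals were water animals 20 and 17, followed by ethanol animal 8 and water animal 19. The means were 7.94 ± 0.30 (SD, n = 10) and 7.66 ± 0.36 (SD, n = 10), a difference of 0.28 (SE 0.138) or 1.22-fold, with an adjusted p of 0.415. Without water animals 17, 19 and 20 the difference was 0.11.

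Htr1b, which medium spiny neurons make and send to their terminals, and which also acts as an autoreceptor on serotonin fibres, was tightly spaced in ethanol. Its lowest, median and highest log2 levels were 7.10, 7.31 and 7.52 in ethanol and 6.93, 7.20 and 7.50 in water. All but the highest ethanol animal lay within the span of the water animals, and 9 of 10 were above the water median. The means, 7.30 ± 0.11 (SD, n = 10) and 7.22 ± 0.20 (SD, n = 10), differed by 0.08 (95% interval -0.06 to 0.22, adjusted p = 0.635). Without water animals 17, 19 and 20 the difference was 0.027, and with the medium spiny neuron mean as a covariate it was 0.040.

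Htr1f, a related inhibitory receptor, held its lowest and its highest value in the same group. It ran from 6.81 in ethanol animal 8 through a median of 7.57 to 8.05 in ethanol animal 10, and from 7.09 through 7.38 to 7.84 in water. The difference of the means was 0.13 (95% interval -0.13 to 0.38, adjusted p = 0.669). It was 0.063 without water animals 17, 19 and 20 and 0.044 with the marker covariate. The only probe set of Htr5a was dim, with means of 6.14 ± 0.15 (SD, n = 10) in ethanol and 6.15 ± 0.15 (SD, n = 10) in water, and its 95% interval ran from -0.14 to 0.13.

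The largest differences among the member probe sets were those of the brightest Htr2a and the dimmer Htr2c probe set, both for Gq-coupled receptors, and neither passed. Htr2a is the receptor through which classical psychedelic drugs act. The log2 level of its brighter probe set was lowest at 7.88, with a median of 8.24 and a highest value of 8.60, in ethanol. In water the corresponding levels were 7.21, 7.93 and 8.78. The water animals spread over more than the whole ethanol range: animals 17, 20, 18 and 12 were below every ethanol animal, and animal 16 was above every one. The means were 8.27 ± 0.24 (SD, n = 10) and 7.92 ± 0.47 (SD, n = 10), and 9 of 10 ethanol animals were above the water median. The difference of 0.35 (SE 0.155, 95% interval 0.03 to 0.67), or 1.28-fold, had an unadjusted p of 0.033 and an adjusted p of 0.387. It was 0.17 without water animals 17, 19 and 20 and 0.20 with the medium spiny neuron mean as a covariate.

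Of the 3 dim probe sets of Htr2a, 1 had a difference below 0 and 2 had small differences above it. The first, of a kind whose probes may match more than one transcript, was at 5.78 ± 0.13 (SD, n = 10) in ethanol and 5.89 ± 0.06 (SD, n = 10) in water. Its difference of -0.11 (95% interval -0.21 to -0.015) had an adjusted p of 0.430 over all 31042 probe sets. The other two differed by 0.02 and 0.03, with adjusted p-values of 0.925 and 0.825. Once group means were removed, the pairwise correlations between the 4 Htr2a probe sets lay between -0.13 and 0.07 over the 20 arrays.

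Htr2c is an excitatory receptor that is abundant in the striatum and in the choroid plexus and whose RNA is edited. The log2 level of its brighter probe set was lowest at 13.53, with a median of 13.73 and a highest value of 13.89, in ethanol, and 13.20, 13.67 and 13.95 in water. The ethanol animals lay within the water range, and the 4 lowest animals of all were water animals 20, 17, 19 and 12. The means, 13.71 ± 0.14 (SD, n = 10) and 13.61 ± 0.22 (SD, n = 10), differed by 0.10 (SE 0.080, adjusted p = 0.616). Without water animals 17, 19 and 20 the difference was -0.014, and with the medium spiny neuron mean as a covariate it was -0.017.

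The other Htr2c probe set, designed against several transcripts of the same gene, had the largest difference of all 17. Its lowest, median and highest log2 levels were 7.68, 8.31 and 8.73 in ethanol and 7.45, 7.94 and 8.40 in water. Of the ethanol animals 9 of 10 were above the water median, and 4, animals 1, 4, 5 and 10, were above every water animal, while the 3 lowest animals were water animals 20, 17 and 18. The means were 8.31 ± 0.30 (SD, n = 10) and 7.91 ± 0.34 (SD, n = 10). The difference of 0.39 (SE 0.132, 95% interval 0.12 to 0.67), or 1.31-fold, had an unadjusted p of 0.007 and an adjusted p of 0.300. It was 0.25 without water animals 17, 19 and 20 and 0.26 with the marker covariate.

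The pair of Htr2c probe sets therefore gave differences of unequal size, and this was compared within each animal. The dimmer minus the brighter value was -5.40 ± 0.22 (SD, n = 10) in ethanol and -5.70 ± 0.26 (SD, n = 10) in water. The difference of 0.30 had p = 0.01393 in a two-sided permutation test with 100000 resamples, for a comparison that was chosen after the values were seen and not adjusted for the other genes. Without water animals 17, 19 and 20 it was 0.27, with p = 0.05301 in an exact two-sided permutation test over 19448 regroupings. Neither permutation test took RNA quality, described below, into account. Averaged over both probe sets, Htr2c differed by 0.25 (adjusted p = 0.427). With group means removed, the pair correlated at r = 0.65 over 20 arrays and 0.51 over the 17 without those animals. Choroid plexus, which carries much Htr2c and borders the ventricle, was checked by its markers. By their means over all arrays 11 of 14 were dim, including Ttr, Folr1 and Kl, and the mean of the other 3 ranged from 7.38 to 7.66 in ethanol and from 7.15 to 7.81 in water. In single animals 0 or 1 of the 11 exceeded the dim level, except in water animal 20, where Ttr (8.20), Prlr (7.93) and Sostdc1 (6.78) did. Prlr also exceeded it in water animals 17 (7.30) and 19 (6.91), and Sostdc1 in water animal 13 (6.93) and ethanol animal 2 (6.73). Ttr was at most 6.88 in the other 19 animals, and Htr2c was lowest in water animal 20 by both of its probe sets.

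**Figure D2:**
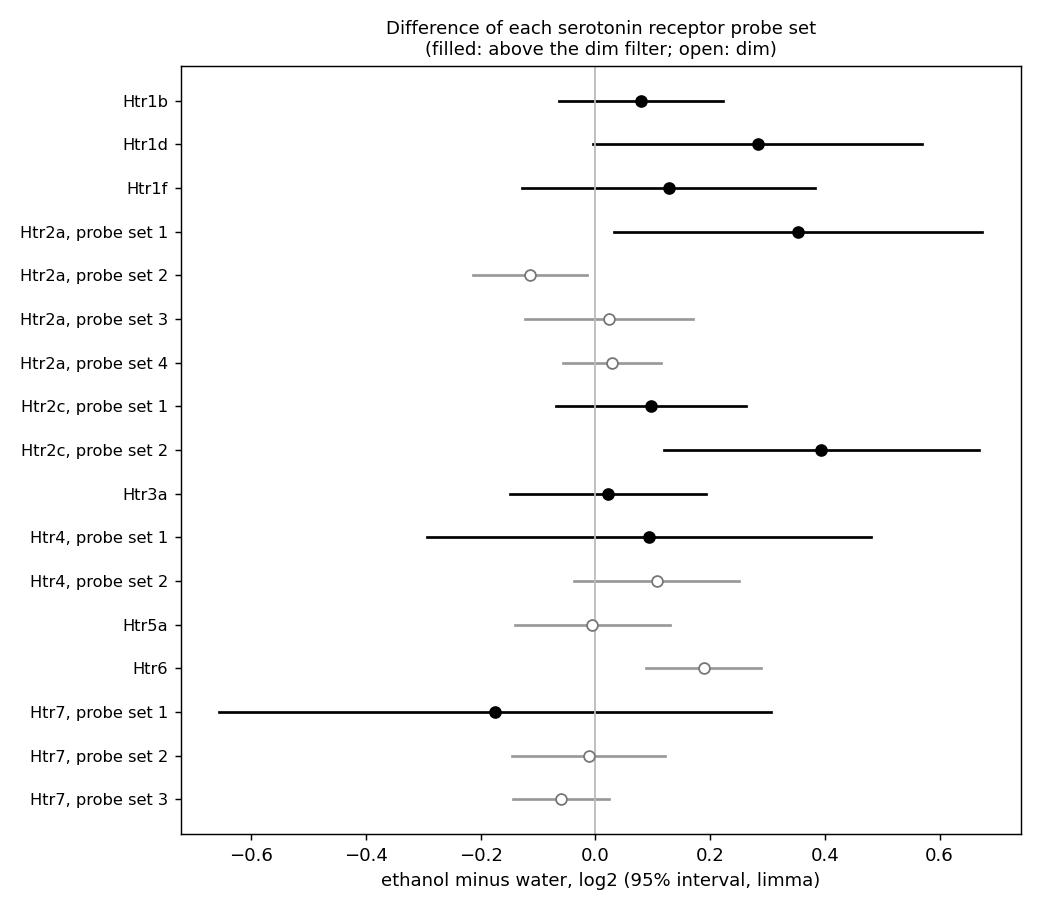
Difference between ethanol and water, in log2 units, of all 17 serotonin receptor probe sets with 95% intervals from limma; filled points are above the dim level and open points are dim. The intervals of Htr2a (probe sets 1 and 2), Htr2c (probe set 2) and Htr6 leave out 0 before adjustment, and none passed after it. Probe sets are numbered from the brightest within a gene.

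Of the Gs-coupled receptors, Htr7 varied far more within water than within ethanol. Htr7, a receptor with high levels in thalamus, hippocampus and septum, had log2 levels from 6.99 through a median of 7.41 to 7.70 in ethanol. In water they ran from 6.74 through 7.22 to 8.80. Water animals 17, 19 and 20 were at 8.45, 8.37 and 8.80, above all the other 17 animals, of which the highest, water animal 13, was at 7.74. The SD was accordingly 0.76 (n = 10) in water, with a mean of 7.53, and 0.26 (n = 10) in ethanol, with a mean of 7.36. The difference of -0.18 (95% interval -0.66 to 0.31, adjusted p = 0.763) became 0.26 (adjusted p = 0.476) without those 3 animals and 0.19 (adjusted p = 0.577) with the marker covariate. Its dim probe sets differed by -0.01 and -0.06, with adjusted p-values of 0.964 and 0.601.

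Htr4, a receptor that is plentiful on striatal neurons, was lowest at 8.77, with a median of 9.45 and a highest value of 10.14, in ethanol and at 8.25, 9.42 and 9.94 in water. The groups overlapped almost fully, and 5 of 10 ethanol animals were above the water median. The low end was water animal 20, followed by ethanol animals 8, 1 and 2 and water animals 17 and 19. The means of 9.40 ± 0.42 (SD, n = 10) and 9.30 ± 0.48 (SD, n = 10) differed by 0.09 (95% interval -0.29 to 0.48, adjusted p = 0.852), which became -0.15 without water animals 17, 19 and 20. The dim probe set differed by 0.11 (adjusted p = 0.587).

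Htr6, a receptor that is largely restricted to the brain, had the smallest p of the family from a dim probe set. Its lowest, median and highest log2 levels were 5.82, 6.03 and 6.20 in ethanol and 5.74, 5.85 and 5.97 in water. Of the ethanol animals 9 of 10 were above the water median and 8 were above every water animal, although all 20 values lay within a narrow span at the bottom of the scale. The means of 6.04 ± 0.12 (SD, n = 10) and 5.86 ± 0.08 (SD, n = 10) differed by 0.19 (SE 0.048, 95% interval 0.09 to 0.29), or 1.14-fold, with an unadjusted p of 0.001. The adjusted p was 0.231 over all 31042 probe sets, of which 0.0709% passed and 10.6% had an unadjusted p below 0.05. Of the 17 member probe sets 0 passed in that fit and 5 had an unadjusted p below 0.05. Without water animals 17, 19 and 20 the Htr6 difference was 0.20 (adjusted p = 0.197). The lowest adjusted p of any member under any alternative, 0.0733, was that of Htr6 with arrays weighted by quality.

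Htr3a, the channel subunit, which in forebrain marks a class of interneurons, had log2 levels of 6.98, 7.32 and 7.68 (lowest, median and highest) in ethanol and 7.07, 7.28 and 7.69 in water. The groups covered almost the same span. The means of 7.32 ± 0.21 (SD, n = 10) and 7.29 ± 0.17 (SD, n = 10) differed by 0.02 (95% interval -0.15 to 0.19, adjusted p = 0.928).

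**Figure D3:**
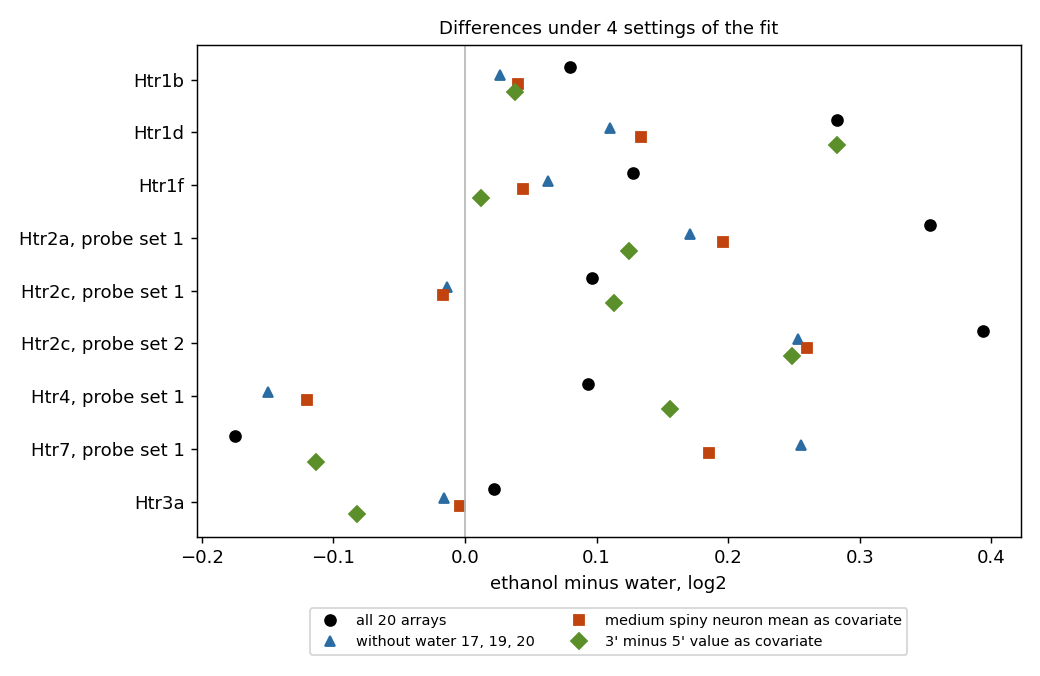
Difference between ethanol and water, in log2 units, of the 9 brighter serotonin receptor probe sets in 4 fits: all 20 arrays (circles), without water animals 17, 19 and 20 (triangles), with the mean of 20 medium spiny neuron markers as a covariate (squares) and with RNA quality (control probe sets, 3' minus 5') as a covariate (diamonds). Htr7 moves from -0.18 to 0.26 and Htr4 from 0.09 to -0.15 when the 3 water animals are left out. Htr1b, Htr1d, Htr1f, Htr2a and Htr2c probe set 2 stay positive in all 4 fits.

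RNA quality was read from the control probe sets placed at the 3' and 5' ends of the same transcripts. The mean 3' minus 5' value was 1.16 in ethanol (range 1.03 to 1.35) and 1.29 in water (range 0.999 to 1.46). With it as a covariate, Htr2a differed by 0.12, Htr2c probe set 2 by 0.25 (adjusted p = 0.748) and Htr6 by 0.20 (adjusted p = 0.620). Htr2c probe set 1 then differed by 0.11. The pair of Htr2c differences was thus closer together than the 0.39 and 0.10 of the fit without the covariate. The comparison of the pair within each animal was not tested with RNA quality as a covariate. Htr1d remained at 0.28, while Htr1b differed by 0.038 and Htr1f by 0.012.

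The receptors were next set against the 2 marker means within groups, apart from water animals 17, 19 and 20, which formed a cluster of their own. Of 36 such relations 0 passed after adjustment, for Pearson's r or Spearman's rho. The smallest p belonged to the brighter Htr2c probe set and the medium spiny neuron mean in ethanol, with r = 0.79 (n = 10, permutation p = 0.0045, adjusted p = 0.162) and rho = 0.81 (permutation p = 0.00742, adjusted p = 0.267). Without animals 8 and 7, the farthest from the median of the marker mean, r was 0.63. In the other 7 water animals r was 0.64 (exact permutation p = 0.114, adjusted p = 0.388) and rho was 0.68. The dimmer Htr2c probe set had r = 0.60 and rho = 0.67 in ethanol (n = 10), but r = -0.36 and rho = 0 in water (n = 7). Its r in water was 0.45 without animals 12 and 18. Htr7 ran against the marker mean in both groups, with r = -0.62 in ethanol (n = 10, permutation p = 0.053; rho = -0.58) and r = -0.62 in water (n = 7, exact permutation p = 0.144; rho = -0.61). The r of Htr7 in ethanol was -0.45 without animals 8 and 7. For the septum, pallidum and basal forebrain mean, the smallest p was that of Htr3a in ethanol. There r was -0.71 (n = 10, permutation p = 0.01964, adjusted p = 0.354), and in water it was -0.60 (n = 7). The rho of Htr3a in water was -0.39, and without animals 13 and 16 its r there changed sign to 0.72. Against this mean Htr7 had r = 0.54 and rho = 0.68 in ethanol, and r = 0.67 and rho = 0.07 in water. Its r in water was -0.24 without animals 13 and 16.

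**Figure D4:**
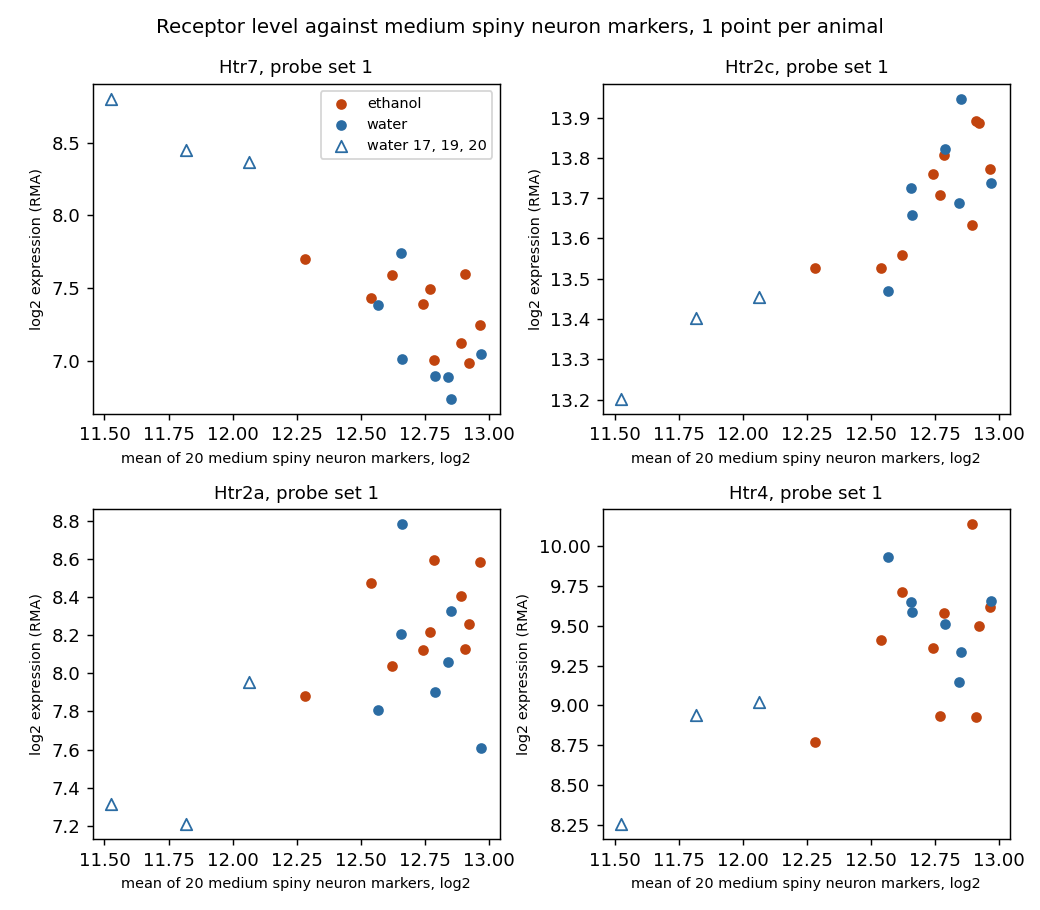
Log2 level of Htr7, Htr2c, Htr2a and Htr4 (brightest probe set of each) against the mean log2 level of 20 medium spiny neuron markers, with 1 point per animal; ethanol is orange, water blue, and open triangles are water animals 17, 19 and 20. These 3 animals have marker means of 11.53 to 12.06 and Htr7 levels of 8.37 to 8.80, and the other 17 have marker means of 12.28 or more and Htr7 levels of 7.74 or less.

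The genes whose level followed a receptor most closely differed from one receptor to the next. Likeness was Pearson's r over the 20 arrays after subtraction of group means, among 10662 genes, and is a description that the 3 separate water animals can raise. Closest to Htr2c were Hs6st2, Nfx1 and Meox2, each at r = 0.95, and at 0.92 for each over the 17 other arrays. Closest to Htr7 were Ctbp2 and Basp1 at 0.97 and Magee1 at 0.96, which were at 0.93, 0.94 and 0.92 over the 17 arrays. The likeness was lower for the other receptors. Htr1d was closest to Tgfb3 (0.87), Zfp444 (0.84) and Pmepa1 (0.83), Htr4 to Sv2c (0.86), Bmp2 and Btbd3 (both 0.85), and Htr2a to Cyld, Actr2-ps1 and Ywhaz (each 0.86). Htr1b was closest to Arfrp1 (0.85), Crybg2 (0.81) and Wnt5b (0.74), Htr1f to Ankrd12 (0.81), Nlgn1 (0.76) and Id4 (0.75), and Htr3a to Itgb1bp1 (0.76), Dennd6a and Kmt5b (both 0.74).

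Other serotonin genes, in 6 further lists, gave 0 rises and 0 falls. Of all probe sets above the dim level 0.0966% passed, so a count of 0 in lists this short says little about these genes. The other receptors Htr1a, Htr2b, Htr3b and Htr5b were all dim, and over all 31042 probe sets Htr5b differed by 0.11 (adjusted p = 0.519), Htr3b by -0.05 (adjusted p = 0.774) and Htr2b by 0.03 (adjusted p = 0.821). Of the genes of serotonin synthesis, transport and breakdown, 11 of 15 were on the gene table and 6 were above the dim level, with 4 differences above 0 and 2 below. Gch1, which starts the synthesis of a cofactor for making serotonin, had the smallest p but was dim (difference 0.15, adjusted p = 0.439 over all 31042 probe sets). Aanat, which acetylates serotonin, was at 7.09 ± 0.16 (SD, n = 10) in ethanol and 6.92 ± 0.19 (SD, n = 10) in water (difference 0.17, adjusted p = 0.400). Ddc, the decarboxylase that makes serotonin and dopamine, differed by 0.11 (adjusted p = 0.407). The serotonin transporter Slc6a4 and the raphe transcription factor Fev were dim, as were Slc22a3 and Asmt.

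Signalling partners of the receptors also did not pass. Of 12 receptor partner proteins, all above the dim level, 3 differences were above 0 and 9 below. S100a10, an adaptor that binds Htr1b and Htr4, was at 8.80 ± 0.25 (SD, n = 10) in ethanol and 9.09 ± 0.42 (SD, n = 10) in water (difference -0.29, adjusted p = 0.420). Its highest level was 9.25 in ethanol and 9.91 in water. Arrb2, a beta-arrestin, differed by -0.15 (adjusted p = 0.536) and Rgs4, which shortens signalling by G proteins, by 0.13 (adjusted p = 0.635). On the Gq side 6 of 8 genes were positive. Among these, Itpr1, the calcium channel opened by inositol trisphosphate, differed by 0.37 (adjusted p = 0.433), the alpha subunit Gnaq by 0.24 (adjusted p = 0.413) and the kinase Prkcb by 0.18 (adjusted p = 0.422). The lowest Itpr1 level was 12.36 in ethanol and 11.51 in water. On the Gi/o side, 4 of 5 brighter genes were positive. The alpha subunits Gnao1 and Gnai2 differed by 0.10 (adjusted p = 0.490) and -0.10 (adjusted p = 0.574), and the dim potassium channel subunit Kcnj3 by -0.08 (adjusted p = 0.627 over all 31042 probe sets). On the Gs side 5 of 12 were positive, with Prkar2b, a regulatory subunit of protein kinase A, at a difference of 0.18 (adjusted p = 0.452), its catalytic subunit Prkaca at -0.17 (adjusted p = 0.497) and the adenylyl cyclase Adcy3 at 0.12 (adjusted p = 0.492).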

How the data were processed

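RNA from the nucleus accumbens shell was measured on 1-colour Affymetrix arrays. RNA was prepared with Trizol plus a column, and 50 ng of it was labelled from the 3' end, per the labels' protocols, so values depend on RNA integrity. Per the submitters' processing notes, the authors used RMA (background correction, normalization between arrays, summary of probes into probe sets). The sources used here do not name its software or chip definition. The deposited values are log2 levels, from 3.89 to 16.25, with array medians of 7.93 to 7.98. Animal 11 was not analysed here.

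The 57 control probe sets and 33.3% of probe sets, those dimmest on average (mean below 6.65), were left out, which kept 20695 probe sets and 10746 genes. Groups were compared in R 4.3.3 by limma 3.58.1, as a two-sided moderated test from lmFit and eBayes with no covariate, and p-values were adjusted over every probe set in the fit (Benjamini-Hochberg). Dim members come from the same fit on all 31042 probe sets. A gene is represented by its brightest probe set. Precision is limited by the 10 arrays in each group.

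Named genes are all 10 members, the 3 genes most like each brighter member, and from each serotonin list the genes past the threshold or otherwise the 3 of smallest p. Members, lists and the animals left out were chosen with earlier results of these data known. All 10 members matched the RefSeq gene table by identifier. Cell type markers came in 14 lists, among them medium spiny neuron, septum and choroid plexus markers. Of the other 11 lists (GABAergic interneuron, cholinergic neuron, cortical excitatory neuron, ependyma, astrocyte, oligodendrocyte, oligodendrocyte precursor, microglia, endothelial, pericyte, blood) 0 members passed. With 0.0966% of all 20695 probe sets passing, a count of 0 in short lists says little about cell types. The fit was tested on simulated data with independent normal noise for each probe set. That test lacks the correlation between genes seen here, so it checks the calculation and not the calls in these arrays. Alternatives changed the dim filter, normalization, variance model, array weights, covariates, block, probe set choice, threshold and arrays used.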

Additional observations from a re-analysis of the deposited data

Results flagged for a closer look

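Of 72 groups of 10 values checked for a single animal far from the rest, 3 had one, and chance gives about 1 in 20 groups. In ethanol animal 2 the dimmest Htr7 probe set was at 4.74, with the nearest ethanol animal at 4.54, both far under the dim level. The mean of the cortical excitatory neuron markers above the dim level was 8.91 in ethanol animal 3 and 8.57 in the nearest ethanol animal, and the defining markers Slc17a7, Emx1, Neurod6 and Tbr1 were dim. The mean of the oligodendrocyte precursor markers was 9.57 in ethanol animal 8 and 9.39 in the nearest ethanol animal.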

How the results depend on the processing

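The count of serotonin receptor probe sets past the threshold was 0 under all 14 alternative fits and at an adjusted p below 0.1, and 2 at an unadjusted p below 0.05. Over all probe sets the count was 20. It was 10 with probe sets below the median of the means left out, 38 with array weights, 8 with the 3' minus 5' covariate, 46 with the medium spiny neuron covariate and 50 without water animals 17, 19 and 20. It was 17 to 24 under the other alternatives. Of 217 member differences recomputed, 187 kept their direction and their side of the threshold and 30 changed sign; the cause of these changes was not tested. Htr2c probe set 1 became -0.017 with the medium spiny neuron covariate, -0.012 without the outlying arrays and -0.014 without water animals 17, 19 and 20. Htr3a became -0.022 with array weights, -0.082 with the 3' minus 5' covariate, -0.0038 with the medium spiny neuron covariate, -0.027 without the outlying arrays, -0.016 without 17, 19 and 20, and -0.012 without 12 and 13. Htr4 probe set 1 became -0.12 with the medium spiny neuron covariate, -0.045 with the oligodendrocyte covariate, -0.018 without the outlying arrays and -0.15 without 17, 19 and 20. Htr5a, at -0.005, became 0.030 with array weights, 0.017 with the 3' minus 5' covariate, 0.0012 with the choroid plexus covariate, 0.0071 with the oligodendrocyte covariate, 0.043 without the outlying arrays and 0.0098 without 12 and 13. Htr7 probe set 1 became 0.11 with array weights, 0.19 with the medium spiny neuron covariate, 0.021 with the oligodendrocyte covariate, 0.11 without the outlying arrays and 0.26 without 17, 19 and 20. Htr7 probe set 2 became 0.065 with array weights, 0.045 with the medium spiny neuron covariate, 0.031 with the oligodendrocyte covariate, 0.070 without the outlying arrays, 0.048 without 17, 19 and 20, and 0.026 without 12 and 13. RMA compresses differences of dim probe sets, which limits Htr5a, Htr6 and the dim probe sets of Htr2a, Htr4 and Htr7.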
